A study of Homo sapiens with 6 samples.

Results

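The regions described here are broad stretches of open chromatin, away from protein-coding promoters, that carried a peak in every library of MM.1S cells. MM.1S is an established multiple myeloma cell line, that is, a line of malignant plasma cells. Peaks from 6 Omni-ATAC libraries were merged wherever they overlapped by at least 1 bp, which gave 89196 regions on the autosomes and chromosomes X and Y. Of these, 42089 had a peak in all 6 libraries, and 386 of those were at least 1200 bp wide and lay more than 1000 bp from any start of a protein-coding gene. These 386 broad distal regions made up 1.40% of the 27493 distal regions called in all 6 libraries. The members were chosen by the presence and the width of peaks in these libraries, so width and coverage are given below as descriptions. The rule did not use the group labels, but the width was not met equally in both groups. A peak of at least 1200 bp was present at 102, 0 and 128 members in CB-6644 replicates 1, 2 and 3. In DMSO replicates 1, 2 and 3 the counts were 14, 192 and 265. The choice can thus favour regions that are wider with DMSO, and its part in the group differences below was not tested.

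The 3 treated libraries came from cells kept for 72 h with 120 nM CB-6644, an inhibitor of the ATPase activity of RUVBL1 and RUVBL2. The 3 control libraries came from cells kept with the vehicle, DMSO. Both groups were the same cell line with no engineered allele named in the labels, live cells were sorted before the assay, and no label states whether replicates were separate cultures, so p-values measure only the spread between these libraries. The comparison asks how inhibition of RUVBL1/2 altered accessibility.

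Omni-ATAC uses a transposase that cuts and tags accessible DNA, so that sequenced fragments pile up where nucleosomes are absent or loose. Most open sites in a cell are narrow and correspond to a single cluster of bound transcription factors. Wide open stretches are best known at CpG-rich promoters, at clusters of enhancers and at starts of non-coding RNAs. RUVBL1 and RUVBL2 are AAA+ ATPases that serve in the chromatin remodelers INO80 and SRCAP and the acetyltransferase complex TIP60. They also take part in assembling other large complexes.

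Sequence around the strongest summit is shown for 5 members that stand for the kinds of region described below. Each run is 101 bases of the plus strand of hg38, and capitals mark matches to any of 16 short motifs searched on both strands. The first lies at the start of MIRLET7A1HG, the host transcript of let-7 microRNAs, and had the highest lowest rank over the libraries (chr9:94166065-94166165). The others lie in an intron of BACH2 (chr6:90285730-90285830), near XBP1 (chr22:28792280-28792380), near GPR25 (chr1:200866696-200866796) and in an intron of OTULIN (chr5:14676514-14676614). The last 2 are shown because their summit pile-up differed between the groups.
MIRLET7A1HG: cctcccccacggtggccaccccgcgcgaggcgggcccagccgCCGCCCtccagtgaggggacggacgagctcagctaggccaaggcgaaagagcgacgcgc
BACH2: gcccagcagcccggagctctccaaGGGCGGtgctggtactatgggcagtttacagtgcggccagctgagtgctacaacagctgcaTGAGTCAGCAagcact
XBP1: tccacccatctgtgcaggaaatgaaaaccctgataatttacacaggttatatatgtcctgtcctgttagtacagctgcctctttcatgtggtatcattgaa
GPR25: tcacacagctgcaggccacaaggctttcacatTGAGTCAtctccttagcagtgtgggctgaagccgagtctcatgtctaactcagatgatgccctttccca
OTULIN: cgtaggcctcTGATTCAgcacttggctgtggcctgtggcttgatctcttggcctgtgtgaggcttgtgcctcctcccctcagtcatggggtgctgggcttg
The MIRLET7A1HG window was 76.2% G and C, held 13 CpG pairs and matched the SP/KLF motif GGGCGG. The BACH2 window matched the AP-1 motif TGANTCA and the MAF motif TGCTGAC in overlapping letters, and the SP/KLF motif. The GPR25 and OTULIN windows each matched AP-1. The XBP1 window held none of the 16 motifs and no CpG pair. The runs of 31 bases tested in these 5 windows occurred 1 time each in the genome.

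The libraries differed in ways that crossed the groups. Among CB-6644 libraries replicate 2 stood apart, with a shortest peak of 65 bp, and among DMSO libraries replicate 1 did, at 91 bp. In the other 4 the shortest peak had 131 to 152 bp. The caller's minimum peak length usually follows its estimate of fragment length, and this division of the libraries is called the library set below. The lists held 58563 to 79020 peaks and gave no read totals. Summit pile-up, the number of tags stacked at a summit, was recovered from each peak's fold and p-value and stood in for depth. Its median over the 386 regions was 107, 48.5 and 129.5 tags in CB-6644 replicates 1, 2 and 3, and 119, 177 and 163 in DMSO replicates 1, 2 and 3. The identity of the cells was checked by promoter peaks. All 9 plasma cell markers, among them SDC1, TNFRSF17, IRF4 and PRDM1, had one in every library, and none of 3 T-cell markers did. MS4A1 and CD22 of mature B cells, and MPO and CSF1R of myeloid cells, had none, whereas PAX5, CIITA and HBB had one in every library.

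Merged width ran from 1200 to 2936 bp with a median of 1343.5 bp, and the 386 regions together spanned 544 kb. Little of that width was shared by every library. The bases covered in all 6 had a median of 377 bp, or 27.2% of a region, and in 4 regions no base was covered in all 6. CB-6644 replicate 2 limits this number, as it covered a median of 396 bp, against 776 to 1285 bp in the other libraries. The bases covered in at least 4 libraries had a median of 1021.5 bp. A single peak of at least 1200 bp was present in some library for 312 regions, and in the other 74 the width came from joining peaks of different positions. The strongest summits nevertheless lay close together. Their range over the 6 libraries had a median of 85.5 bp, was within 100 bp in 210 regions and exceeded 500 bp in 102.

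Within a region, peaks covered a mean of 1079, 413 and 1136 bp with CB-6644 (replicates 1, 2 and 3). With DMSO they covered 798, 1245 and 1335 bp. The shortest coverage in each group was that of its short-peak library. The group means were 876 ± 402 bp with CB-6644 and 1126 ± 287 bp with DMSO (SD, n = 3 libraries each), a difference of -250.0 bp that was smaller than the spread within CB-6644. The difference was -182.3 bp in the 4 libraries with longer peaks and -385.3 bp between the other 2. It was -18.4 bp without CB-6644 replicate 2 and -413.9 bp without DMSO replicate 1, which leave the library sets unbalanced.

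**Figure D1:**
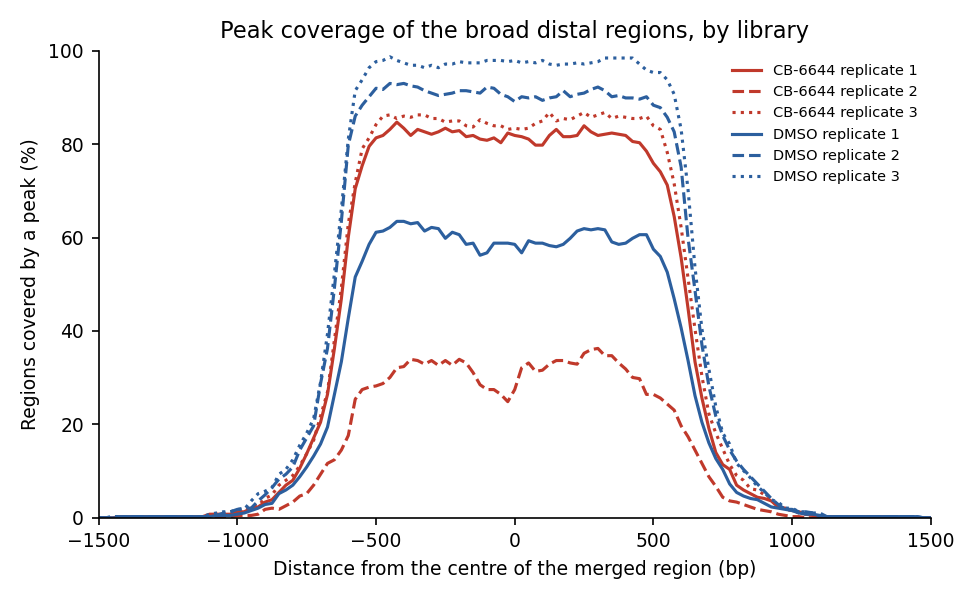
The share of the 386 broad distal regions covered by a peak (vertical axis, %) is plotted against distance from the centre of the merged region (horizontal axis, bp), with 1 line per library, red for CB-6644 and blue for DMSO. At the centre coverage ran from 27.5% in CB-6644 replicate 2 and 58.5% in DMSO replicate 1 to 97.9% in DMSO replicate 3, and at this point the DMSO lines lie above the CB-6644 lines within each library set (89.1% and 97.9% against 81.9% and 83.4% in the 4 libraries with longer peaks).

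Just inside the width threshold, at 1200 bp, were regions whose nearest protein-coding genes were NUAK1, OR4E1 and SPPL2B (299192, 352088 and 1167 bp away). Their mean percentile ranks by -log10 p were 64.6, 56.0 and 66.1. Just outside, at 1199 bp, were distal regions near DISC1, FRMD8 and MASP1, with mean ranks of 67.0, 79.5 and 76.0.

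The broad distal regions ranked high in each library, though below broad promoters. A wide peak may also rank high, and the members were chosen by width, so this order is given as a description. Their median percentile of -log10 p was 75.6, 74.7 and 74.99 in CB-6644 replicates 1, 2 and 3, and 80.7, 80.4 and 78.5 in DMSO replicates 1, 2 and 3. Distal regions called in all 6 but narrower than 1200 bp had medians of 55.3 to 65.3, and broad promoters of 85.7 to 89.0. Strength varied widely among the members. Their mean percentile ran from 18.6 to 99.8, with 74 at or above the 90th and 42 below the 50th. The fold enrichment over the caller's local background did not follow this order. Its median was 14.4 to 20.0 in the broad distal regions and 15.8 to 21.4 in the narrower ones. The local background itself was higher at the members, at 1.44 to 11.2 tags against 0.453 to 2.88.

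The members were more often outside protein-coding genes than narrower distal regions and often at the start of a non-coding gene. Intergenic, intronic and exonic refer here to protein-coding genes only, so a region inside a lncRNA gene can count as intergenic. Of the 386, 263 were intergenic (68.1%, 95% Wilson interval 63.3 to 72.6), 97 intronic (25.1%) and 26 exonic (6.74%). Narrower distal regions were 53.4% intergenic and 42.5% intronic. The start of a long non-coding RNA lay within 1 kb of 127 members (32.9%, 28.4 to 37.7), against 6.66% (6.37 to 6.96) of the 27107 narrower distal regions and 32.5% of the 2008 broad promoters. Another 22 members lay at the start of another non-coding gene or pseudogene, and 237 (61.4%) at no annotated start. The median distance to a protein-coding start was 26.9 kb, against 23.1 kb in narrower distal regions. The intervals cover counting error only, and a wider region has more room to meet a start.

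Sequence composition lay between that of narrower distal sites and promoters. Median G and C content was 56.1% in the members, 48.7% in narrower distal regions and 66.7% in broad promoters. CpG pairs are depleted in most of the genome and kept at many promoters. Counting as CpG-rich a region with at least 50% G and C and an observed-to-expected CpG ratio of at least 0.6, 141 members (36.5%, 31.9 to 41.4) were CpG-rich, against 7.002% and 93.2%. Of the 112 members at a non-coding start and without a copy elsewhere, 72 were CpG-rich (64.3%), and of the 221 with neither, 44 (19.9%).

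Another 53 members (13.7%, 10.7 to 17.5) had a copy elsewhere in the genome, of at least 95% identity over at least 50% of the length, against 1.90% of narrower distal regions and 0.747% of broad promoters. In these 53 the median percentile was 52.8 in CB-6644 replicate 2 and 75.7 in DMSO replicate 1, against 78.1 to 82.4 in the 4 libraries with longer peaks. The 221 members with no copy and no annotated start had 74.7 in CB-6644 replicate 2, within the 72.6 to 79.8 of the other libraries. No member resembled mitochondrial DNA over 100 bp or more.

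**Figure D2:**
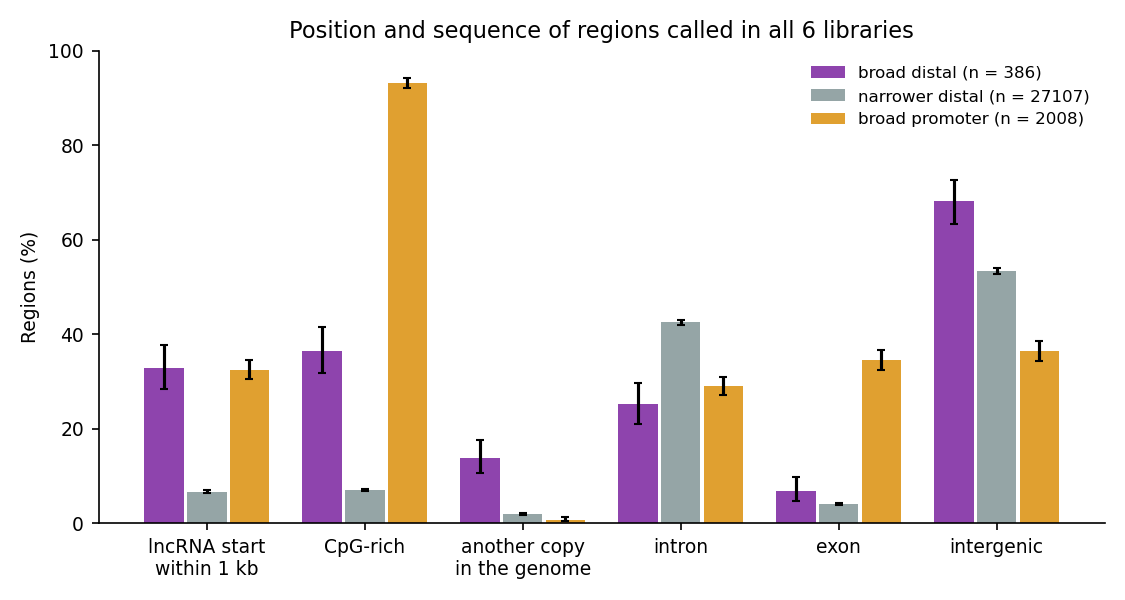
Bars give the share of regions (vertical axis, %) in 6 classes of position and sequence for broad distal, narrower distal and broad promoter regions, all called in all 6 libraries, with 95% Wilson intervals as error bars. The broad distal bars match those of broad promoters at lncRNA starts (32.9% and 32.5%) but not for CpG-rich sequence (36.5% and 93.2%), and they are the highest of the 3 for copies elsewhere and for intergenic position.

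The members were spread over the genome. Each autosome and chromosome X held between 5 and 49, the share of distal regions that were members was highest on chromosome 21 (2.68%, 11 of 410) and chromosome Y held none of 3. Within 100 kb of another member lay 42, and the median gap to the nearest was 1687 kb.

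Within 100 bp of the strongest summit, motifs of CpG-rich promoters were more frequent and IRF and RUNX motifs less frequent than in narrower distal regions. The SP/KLF motif GGGCGG, bound by zinc-finger factors of CpG-rich promoters, matched in 128 members (33.2%, 28.7 to 38.0), against 11.3% of narrower distal regions and 72.7% of broad promoters. The ETS motif CCGGAAG matched in 6.22%, against 2.402%, the CTCF motif AGGGGGC in 9.84%, against 6.78%, and the NRF1 motif GCGCATGC in 1.55%, against 0.469%. The IRF motif GAAANNGAA, read by interferon regulatory factors such as IRF4, matched in 7.25% (5.07 to 10.3), against 14.6% of narrower distal regions. The RUNX motif TGTGGTT matched in 9.33%, against 14.1%. The E-box CAGGTG, read by E proteins such as TCF4, matched in 32.9%, against 34.3%, and its interval (28.4 to 37.7) holds the value of narrower regions. Of the 16 motifs, 6 had a higher share at the members than in narrower distal regions. Among these, the NFY motif AGCCAAT matched in 3.11% (1.79 to 5.35), against 2.72%. The CRE motif TGACGTCA matched in 0.518% (0.142 to 1.87), against 0.476%. Both intervals hold the value of narrower regions. The windows of all sets had 201 bp, and a match is a description of the letters and not a bound site. Median G and C content of these windows was 59.5% in the members, 49.8% in narrower distal regions and 71.1% in broad promoters. The part of base composition in the motif shares was not tested.

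**Figure D3:**
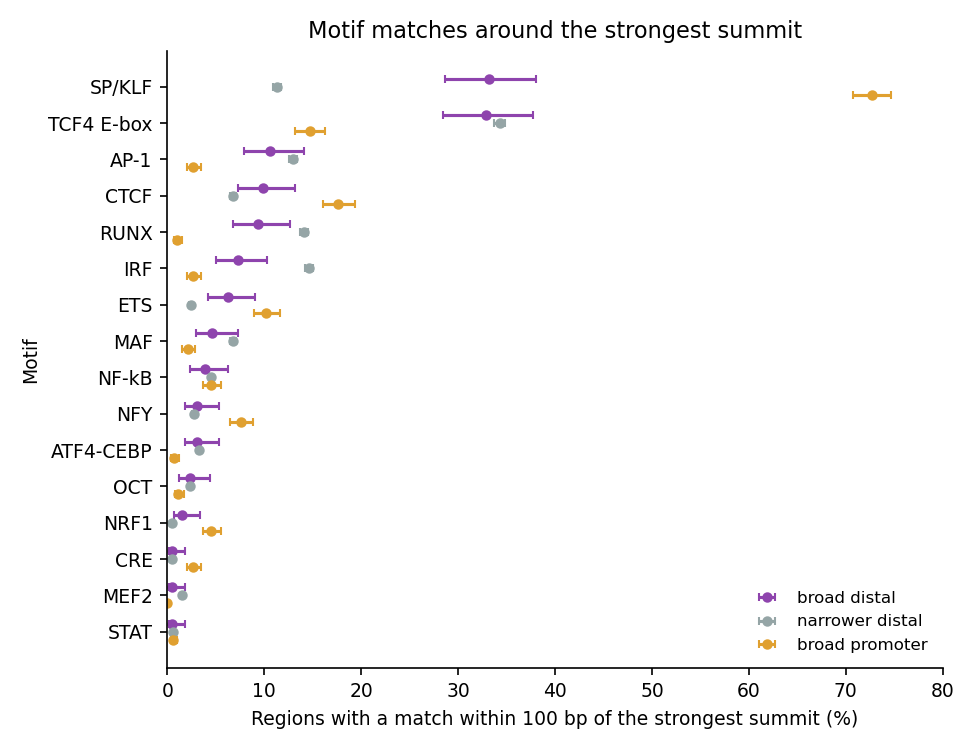
Points give the share of regions with a match to each of 16 motifs within 100 bp of the strongest summit (horizontal axis, %), with 95% Wilson intervals, for broad distal, narrower distal and broad promoter regions. SP/KLF separates the 3 sets (33.2%, 11.3% and 72.7%), and IRF and RUNX lie lower in broad distal than in narrower distal regions.

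The widest member, 2936 bp at chr18:107851-110786, lay at the start of ROCK1P1, a pseudogene transcript near the end of the chromosome arm. Its summit pile-up was 267, 20 and 341 tags in CB-6644 replicates 1, 2 and 3, and 237, 986 and 1044 in DMSO replicates 1, 2 and 3. The groups overlapped, and CB-6644 replicate 2 was far below every other library. The log2 pile-up difference was -1.72 (SE 0.69, limma adjusted p = 0.154), and it passed with the library set as a covariate (adjusted p = 6.34e-08). The next widest lay at non-coding starts near BCOR, a corepressor (2235 bp, chrX:40012922-40015156), at LINC00324 near CTC1, a telomere maintenance gene (2234 bp, chr17:8221413-8223646), near NPIPB3 (2218 bp, chr16:21518558-21520775), and at COX8BP near NLRP6, an innate immune sensor (2152 bp, chr11:267561-269712). The region at LINC00324 had 92, 59 and 136 tags with CB-6644 and 122, 184 and 161 with DMSO, and the groups overlapped. ROCK1P1, the lncRNA at the BCOR region and LINC00324 marked the 3 widest members at a lncRNA start.

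All 5 strongest members lay at the starts of lncRNAs. The MIRLET7A1HG region, 65.8 kb from PTPDC1, ranked at the 99.6th percentile or higher in every library. Its pile-up was 506, 302 and 657 tags with CB-6644 and 608, 678 and 646 with DMSO, so the groups overlapped. The others were LINC02614 near ROPN1B, ENSG00000229422 near CNTNAP3C, MIR9-1HG near MEF2D, the host transcript of a miR-9 gene, and FAM86EP near ADRA2C, with lowest percentiles of 97.8 to 98.9. Those at LINC02614 and ENSG00000229422 have copies elsewhere. The differences between groups of these 5 on the log2 pile-up scale ran from -0.11 to 0.05, each within 1 standard error (SE) of 0.

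Assignment to the nearest protein-coding start within 200 kb placed 352 members at 341 genes. No gene had 3, and 11 had 2, of which NPIPB3, TMEM121, METTL2B, PRR15 and ROPN1B had the largest summed width. Those assigned to TMEM121 lie in the immunoglobulin heavy chain locus, whose genes are not annotated as protein-coding and which plasma cells transcribe at a high rate. The region at chr14:105558796-105560828 lay 22.9 kb downstream of IGHA2, and that at chr14:105679845-105681232 lay 22.8 kb downstream of IGHA1. The sequence downstream of the alpha constant genes is known for enhancers of this locus. The regions are copies of each other, with 97.0 to 97.7% identity, so reads from one can match the other. The IGHA2 region had 219, 32 and 276 tags with CB-6644 and 174, 348 and 372 with DMSO. The IGHA1 region had 90, 10 and 135 with CB-6644 and 58, 129 and 115 with DMSO. In both the groups overlapped and CB-6644 replicate 2 was lowest. The log2 pile-up difference of the IGHA2 region was -0.56 and passed the threshold with the library set as a covariate (limma adjusted p = 0.0129) but not without it (adjusted p = 0.489). That of the IGHA1 region was -0.22 and passed in neither fit (adjusted p = 0.537 with the set). A further member, singled out after its values were seen, lay 2.44 kb upstream of IGHM and 2.94 kb from IGHJ6 (chr14:105858664-105860252), between the joining segments and the mu constant gene. It had 67, 28 and 71 tags with CB-6644 and 45, 94 and 97 with DMSO, and the groups overlapped. In the lambda light chain locus, a member lay 19.8 kb upstream of IGLV5-52 (chr22:22297432-22298913), also singled out after its values were seen. It had 79, 81 and 153 tags with CB-6644 and 112, 134 and 105 with DMSO, and these raw values overlapped. Its log2 pile-up difference was 0.43. This passed with the library set as a covariate (limma adjusted p = 0.0494) but not without it (adjusted p = 0.282).

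Of 13 plasma cell transcription factor genes, XBP1 and MEF2C had a member each, 2 of the 84 distal regions assigned to the list (2.38%, against 1.40% of all). XBP1 drives the secretory program of plasma cells, and its member lay 3.74 kb from the gene (chr22:28791856-28793310). Pile-up there was 54, 11 and 61 tags with CB-6644 and 63, 121 and 137 with DMSO. Every CB-6644 value was below every DMSO value, though CB-6644 replicate 3 and DMSO replicate 1 differed by little. The difference on the normalised log2 pile-up scale was -0.92 (SE 0.33, limma adjusted p = 0.116). It passed the threshold with the library set as a covariate (adjusted p = 0.000542). The MEF2C member, at the start of LINC00461, had 122, 82 and 156 tags against 145, 225 and 181, and the groups overlapped.

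Of 18 myeloma growth and survival genes, MYC and BCL2L11 had a member each. These were 2 of the 78 distal regions assigned to the list (2.56%, against 1.40% of all). The MYC member lay at the start of PVT1, a lncRNA gene next to MYC, 55.3 kb from MYC. It had 81, 74 and 98 tags with CB-6644 and 121, 140 and 87 with DMSO, and the groups overlapped. The BCL2L11 member lay in an intron of that gene, which encodes the pro-apoptotic protein BIM (chr2:111157043-111158250). It had 80, 33 and 100 tags with CB-6644 and 117, 200 and 162 with DMSO, with no overlap.

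Single members lay near IRF1 among 16 NF-kB and inflammatory genes, DDIT4 among 12 amino acid stress genes, BACH2 among 12 mature B-cell genes and POU5F1 among 16 genes of other lineages. Each was 1 of 89, 16, 39 and 21 distal regions assigned to these lists (1.12%, 6.25%, 2.56% and 4.76%), against 1.40% of all. Counts this small are not a result about the lists. IRF1 is an interferon-induced transcription factor, and the intronic member there had 124, 63 and 121 tags with CB-6644 and 181, 204 and 200 with DMSO. These did not overlap, but the log2 difference of -0.33 (SE 0.14) did not pass (limma adjusted p = 0.198). BACH2 represses plasma cell differentiation. Its intronic member ranked between the 92.1st and 96.8th percentile, with 236, 150 and 294 tags with CB-6644 and 265, 308 and 299 with DMSO. These raw values overlapped, and after normalisation the log2 difference was 0.17 (SE 0.11, limma adjusted p = 0.375). The member 12.1 kb from DDIT4, an inhibitor of mTORC1, had 193, 88 and 250 tags against 179, 296 and 247, and the groups overlapped. The POU5F1 member lay at the start of HCG27, a lncRNA gene, and had 145, 105 and 196 tags against 151, 231 and 243, and the groups overlapped.

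None of 20 plasma cell surface and secretory genes, with 60 distal regions called in all 6 libraries, and none of 12 genes of RUVBL1/2 complexes and their targets, with 8, had a member. With 1.40% of all distal regions being members, a count of 0 among so few regions is not a result about these lists. IRF4 had 5 distal regions called in all 6 libraries within 200 kb, the widest of 1124 bp, and PRDM1 had 13, the widest of 1117 bp. CDK6 had 5, up to 857 bp, RUVBL1 had 3, up to 775 bp, and RUVBL2 had none.

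The groups were then compared region by region. All 386 members had a value in every library and entered the fits. The libraries are bulk samples, so fewer cells with an open region and less opening in each cell cannot be told apart. By fold enrichment of the strongest peak, quantile-normalised over all 42089 regions, 0 of 386 members were lower and 0 higher after CB-6644 (limma, adjusted p under 0.05 over all regions). The background was 0.418% of all regions lower and 0.321% higher. At an unadjusted p under 0.05 were 26 members, and the smallest adjusted p of any was 0.0786. The median log2 difference of the members was 0.13, against 0.02 over all regions, -0.03 in narrower distal regions and 0.17 in broad promoters.

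By summit pile-up, normalised in the same way, 22 members were lower (5.70%) and 6 higher (1.55%), against a background of 5.34% lower and 4.62% higher (limma, adjusted p under 0.05). The share lower is near the background. The share higher is below it, and the part of the choice of members by width in this was not tested. The median log2 difference was -0.08 in the members and 0.01 over all regions. Fold enrichment and pile-up thus differed in the sign of the median, and 8 of the 22 lower members had a fold difference above 0. With the library set as a covariate, 65 members were lower (16.8%) and 20 higher (5.18%), against 12.7% and 11.5% of all regions. These included all 22 and all 6. By lack of overlap between groups, 60 members were lower (15.5%) and 33 higher (8.55%), against 14.5% and 14% of all regions. Narrower distal regions were called lower by pile-up in 7.27% and higher in 6.36%, and broad promoters in 0.996% and 0.697%.

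**Figure D4:**
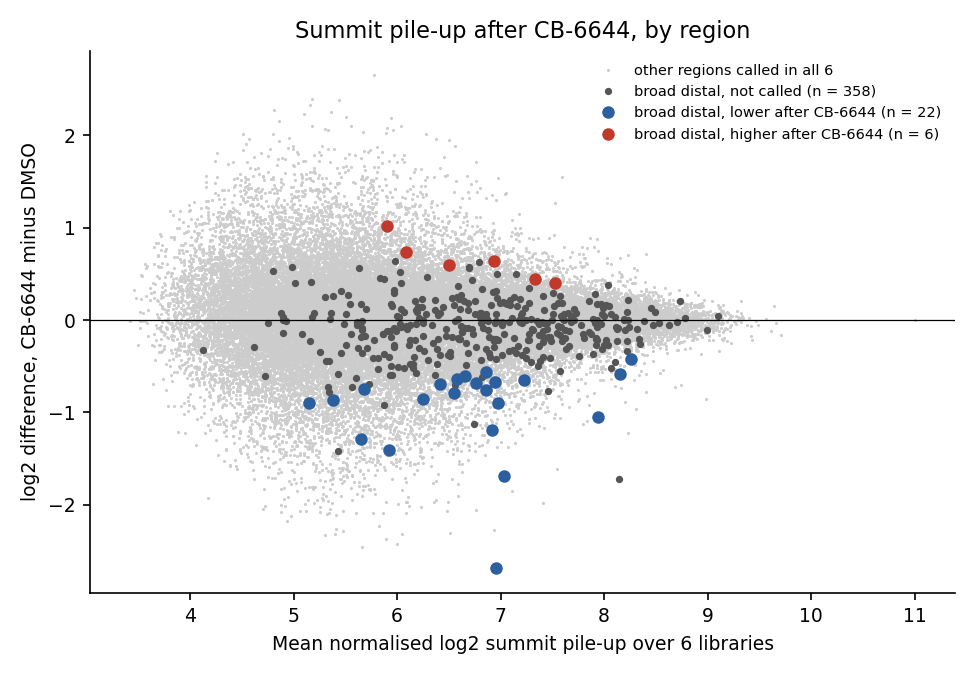
Each point is a region called in all 6 libraries, with its mean normalised log2 summit pile-up (horizontal axis) and the log2 difference CB-6644 minus DMSO (vertical axis); grey points are other regions and dark or coloured points the 386 broad distal regions. The 22 members called lower run from -2.69 to -0.42 and the 6 called higher from 0.40 to 1.02.

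Of the 22 lower members, 15 were intergenic, 5.70% of the intergenic members, against 6.85% of all intergenic distal regions called in all 6 libraries. CpG-rich were 3, or 2.13% of such members, against 1.23% of such distal regions. With no copy and no annotated start, 16 of 221 members were lower (7.24%, against 7.63% of such distal regions). At a non-coding start 4 of 112 were (3.57%, against 4.42%), and with a copy 2 of 53 (3.77%, against 2.81%). These shares lie near those of all distal regions of the same class. Of the 6 higher members, 5 had no annotated start and no copy (2.26% of such members, against 6.62% of such distal regions) and 1 had a copy. The members called by pile-up and named next, other than those near CREBRF, RNPC3, LONRF1, SYK, OTULIN, GATD3, ARHGAP23 and BCL2L11, were chosen after their values were seen.

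Among the 5 members with the smallest p by fold in the lower direction, the CREBRF region (chr5:173035281-173036512) had 38, 14 and 47 tags with CB-6644 and 92, 148 and 144 with DMSO. The groups did not overlap. The log2 pile-up difference was -1.41 (SE 0.19, limma adjusted p = 0.00227), and the log2 fold difference -0.67 (SE 0.16, adjusted p = 0.0886). CREBRF regulates a CREB3-family factor. A run of 31 bases at this summit occurred exactly 5141 times in the genome, so reads from elsewhere can match it, and the part of this in the difference was not tested. The SYK region, 145 kb from the gene of a kinase of B-cell receptor signalling, had 28, 18 and 34 tags against 61, 124 and 129, a difference of -1.29 (SE 0.24, adjusted p = 0.00806). The RNPC3 region, 198 kb from that gene, had 37, 11 and 36 tags against 55, 85 and 77, a difference of -0.87 (SE 0.21, adjusted p = 0.028). The LONRF1 region, 137 kb from that gene and with 2 copies elsewhere, had 99, 18 and 100 tags against 202, 328 and 359.

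Another of the 5, in an intron of IFNAR2, a subunit of the type I interferon receptor (chr21:33238055-33239709), had 42, 5 and 41 tags with CB-6644 and 64, 101 and 110 with DMSO. The groups did not overlap, and the difference of -1.42 (SE 0.42) missed the threshold (limma adjusted p = 0.0565). It passed with the library set as a covariate (adjusted p = 0.000175). CB-6644 replicate 2 stood far below the other libraries there, and no base was covered in all 6.

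A member with high ranks lay 5.28 kb from GPR25, a G protein-coupled receptor gene (chr1:200866482-200867705). It had 182, 89 and 159 tags with CB-6644 and 343, 488 and 467 with DMSO, with no overlap, and fell from percentiles of 97.6 to 98.4 with DMSO to 79.8 to 89.2 with CB-6644. The log2 pile-up difference was -1.05 (SE 0.14, limma adjusted p = 0.00243), while the log2 fold difference was -0.12 (SE 0.18, adjusted p = 0.791). Intronic regions of ITPKB, a kinase of inositol phosphate signalling, and LRP5, a Wnt co-receptor, were lower as well, with log2 differences of -0.67 and -0.56. The BCL2L11 region had -0.60 (SE 0.17, adjusted p = 0.0485). The region near DUSP10, a MAP kinase phosphatase, had 97, 31 and 111 tags against 142, 214 and 216. The FRG2B region had the largest difference, -2.69 (SE 0.70, adjusted p = 0.0371), and has a copy elsewhere. It had 86, 5 and 119 tags with CB-6644 and 196, 469 and 606 with DMSO.

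The ARHGAP23 region was among the 5 with the smallest p in the higher direction by fold, at 0.42 (SE 0.13, limma adjusted p = 0.174). By pile-up it was lower, at -0.90 (SE 0.16, adjusted p = 0.0066), with 75, 50 and 103 tags against 161, 236 and 250. The local background is part of the fold and not of the pile-up. Near TYW3 and in an intron of FLI1, an ETS factor gene, the fold differences were 0.39 and 0.47 and neither passed (adjusted p = 0.202 and 0.203). Their pile-ups overlapped between groups.

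The OTULIN region, in an intron of the gene of a deubiquitinase of linear ubiquitin chains (chr5:14675419-14676672), had 77, 54 and 74 tags with CB-6644 and 47, 57 and 56 with DMSO. These raw values overlapped by CB-6644 replicate 2, the library with the lowest median pile-up over the members, and the normalised values did not. The log2 pile-up difference was 1.02 (SE 0.21, limma adjusted p = 0.0123), and the log2 fold difference 0.80 (SE 0.19, adjusted p = 0.0841). The GATD3 region, which has a copy elsewhere, had 90, 36 and 101 tags against 52, 71 and 81, a difference of 0.74 (SE 0.18, adjusted p = 0.0301). The other 4 higher members lay near UGT2B28, NAV2, TEX19 and RIPOR1, with differences of 0.40 to 0.64.

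**Figure D5:**
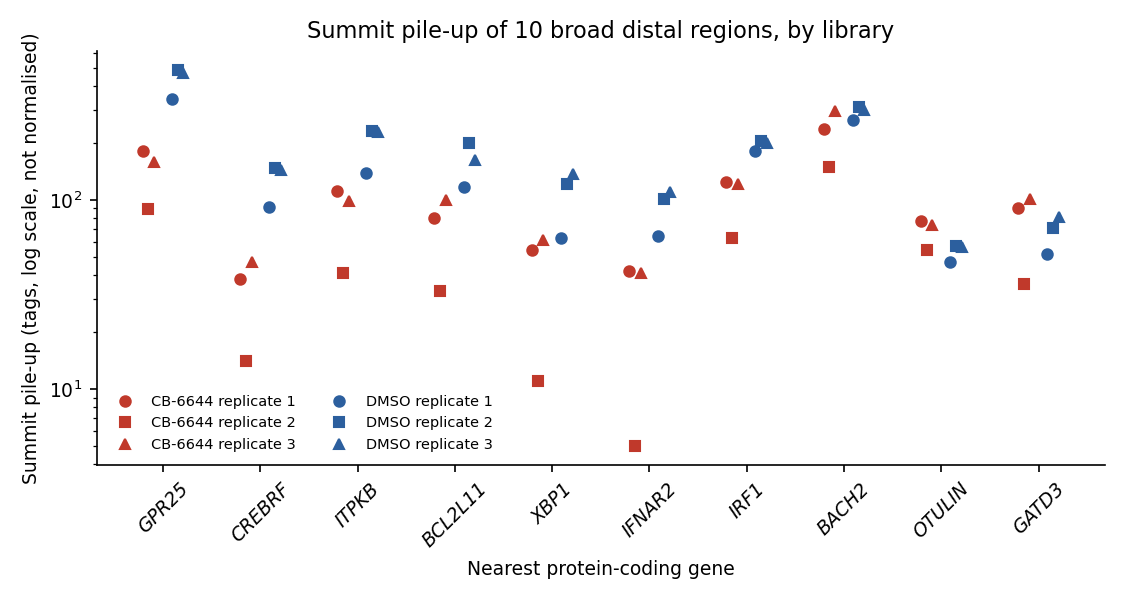
Summit pile-up in tags, not normalised between libraries (vertical axis, log scale), is plotted for 10 broad distal regions named by their nearest protein-coding gene, with red symbols for the 3 CB-6644 libraries and blue for the 3 DMSO libraries. At GPR25, CREBRF, ITPKB, BCL2L11, XBP1, IFNAR2 and IRF1 every CB-6644 library lies below every DMSO library, at BACH2 they overlap, and at OTULIN and GATD3 replicates 1 and 3 of CB-6644 lie above all DMSO libraries.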

How the data were processed

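Live-sorted MM.1S cells were profiled by Omni-ATAC in 3 CB-6644 and 3 DMSO libraries. The authors aligned reads to hg38 (Bowtie2 2.4.2) and called peaks per library (MACS3 3.0), as the submitters' processing notes name them. The peak caller's options are not given in the sources used here. The deposited lists give, per peak, the fold enrichment over the local background as a ratio, and -log10 p and -log10 q values, all unscaled between libraries. The authors' own test used read counts, which were not used here.

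Peaks were merged and annotated with GENCODE release 44. The members, gene lists and motifs were chosen with earlier results of these data known. Named members were the 5 widest, the 5 strongest by their lowest percentile, the 5 with the smallest p in each direction, those of the 5 genes with the most members, those of the listed genes, the 3 widest at a lncRNA start and the 3 on each side of the width threshold, with 7 genes looked up whatever their values. Pile-up was recovered from fold and p-value under a Poisson model, and 100% of peaks of every list gave whole numbers (tolerance 0.05 tags, wider for large values). Log2 fold enrichment (no pseudocount) and log2 pile-up were quantile-normalised and tested with limma 3.58.1 (R 4.3.3, trended prior, Benjamini-Hochberg over 42089 regions), after a test on simulated data. Copies were found with minimap2 2.31-r1302. Other steps used pandas 2.3.3, scipy 1.17.1, numpy 2.4.6 and, for figures, matplotlib 3.10.9 under Python 3.11.15. Alternatives covered normalisation, measure, filters, library set, block and left-out libraries. Read depth is unknown, so pile-up limits precision, and intervals cover counting error only. Peaks on other sequences were left out. Values of 1 marker gene and the sequence of 1 member are not reported here.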

Additional observations from a re-analysis of the deposited data

How the results depend on the processing

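The number of regions was 991 at a width of at least 1000 bp, 82 at 1500 bp, 237 away from the start of any annotated gene and 0 if the 1200 bp had to be covered in all 6 libraries. Leaving out 1 library gave 271 to 405. By fold enrichment, leaving out 1 library gave 0 to 5 lower members (5 without CB-6644 replicate 2) and 0 higher members and medians of 0.01 to 0.20. The fold fit called 4 lower and 11 higher with the library set as a covariate (6.10% and 4.22% of all regions), and 5 and 3 in the 4 libraries with longer shortest peaks (3.74% and 2.896%). Percentiles of -log10 p called 25 lower (6.48%, against 6.43% of all regions), with a median difference of -3.64 percentile points, against -2.64 over all regions. Summit pile-up called 22 and 6, with a median of -0.080. Of the alternatives added after the data were seen, pile-up with the library set called 65 and 20, with a median of -0.080, and pile-up in those 4 libraries called 47 and 20 (10.2% and 8.98% of all regions), with a median of -0.053. Pile-up with the library set and 1 library left out called 38 to 63 lower and 12 to 20 higher, with medians of -0.109 to -0.052 (38 and 12 without DMSO replicate 3). The cause of these differences was not tested.

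Deviations of same-numbered libraries from their group means correlated at -0.48, -0.33 and 0.33. The highest correlation of any pair was 0.57, between CB-6644 replicate 2 and DMSO replicate 1. These are the short-peak libraries, so the correlations cannot tell whether the replicate numbers pair the libraries. With a replicate block 0 members were called by fold and, by pile-up, 14 lower and 1 higher (3.49% and 2.98% of all regions), with a median of -0.080. Of the 28 members called by pile-up, 12 were called under every pile-up alternative and 15 were lost with the block. The ARHGAP23 region was -0.90 by pile-up. At a width of at least 1500 bp, 42.7% were at a lncRNA start and 73.2% intergenic, and without members at any gene start 56.1% were intergenic. Over whole regions 16 of 16 motifs were more frequent than in narrower regions, which have fewer bases. Genes with 2 or more members numbered 4 within 50 kb and 18 within 1000 kb. Leaving out 1 library moved the difference in covered length from -413.9 to -18.4 bp (-18.4 without CB-6644 replicate 2).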
